A study of Mus musculus with 8 samples.

Results

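Nuclear receptors are transcription factors that bind DNA directly and, in many cases, change their activity when a hormone, vitamin, fatty acid or sterol occupies them. The genes described here are 38 mouse members of this family, chosen by symbol, and leave out the corticosteroid receptors and the receptors of the circadian clock. All 38 were found among the 55291 gene symbols in the deposited tables, and 23 of them were high enough to be tested between diets. RNA came from microdissected outer medullary collecting ducts of inbred C57BL/6J mice that ate a high-salt (3%) or a normal-salt (0.3%) diet for 3 days. There were 4 libraries per diet, each a pool of 100 to 120 tubules from 1 mouse. The sources used here give neither the age nor the sex of the mice, and no genetic change or drug separates the groups.

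Receptors of this family fall into a few working types. Retinoid X receptors (RXRs) are partners that pair with the receptors for thyroid hormone, retinoic acid, fatty acids and oxysterols. Orphan receptors such as the estrogen-related receptors have no accepted natural hormone and act mainly through coregulator proteins. In the collecting duct, the part of the kidney tubule that adjusts sodium, water and acid in urine, mouse studies have tied the fatty acid receptor Pparg to fluid retention and the bile acid receptor Nr1h4 (FXR) to the water channel Aqp2.

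Libraries held 69.2 M to 87.7 M estimated counts (M, mega) under high salt and 64.8 M to 94.1 M under normal salt. The labelled tissue was checked with 12 principal cell markers, whose summed level was 28012 to 32926 CPM (each gene's counts as a part of its library's total) under high salt and 19683 to 24706 CPM under normal salt, and with 12 intercalated cell markers, at 9885 to 11498 CPM and 11723 to 12449 CPM. Both sums were high in all 8 libraries, and neither overlapped between the diets. Of single tested genes, 6.4% did not overlap. The principal cell sum did not stand for each of its markers. Means were higher under high salt in 7 and lower in 5 of the 12, with a median log2 fold change of 0.05. Of these, 1 was lower at a limma adjusted p under 0.05, against 0.0522% of all 13401 tested genes. At a limma unadjusted p under 0.05, 4 were higher and 2 lower, against 5.95% and 4.37% of all tested genes. Of the intercalated cell markers 2 were higher and 10 lower, where 47.2% of all tested genes were lower. At that unadjusted level 0 of the intercalated cell markers were higher and 4 lower. Markers of inner medullary duct and urothelium (7 genes) did not overlap either, at 658 to 1016 CPM under high salt and 452 to 612 CPM under normal salt. In these pooled tubules, fewer cells of a type and less RNA per cell cannot be told apart. The part of these cell types in the receptor values was not tested. Markers of the thick ascending limb and of the proximal tubule entered only as covariates in alternative fits.

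The receptors spanned from near 0 to more than 100 TPM (transcripts scaled to a common library total, a level corrected for transcript length), and promoter sequence was one property that the choice of genes did not use. RefSeq promoter windows (build GRCm38.p6, 250 bases before to 50 after a gene's start) were found for 35 of the 38 genes. For a gene with several windows the one with the most CpG dinucleotides was counted. The 22 tested receptors with a window had a median of 20.5 CpGs, and the 13 receptors below the level tested had a median of 12. The medians over all genes with a window were 22 for 10012 tested genes and 4 for 10965 genes that were not tested. Windows of 4 receptors are printed with CpGs in capitals, because they show the range. The 4 are the 2 most abundant receptors with a window, an abundant receptor with few CpGs in its 1 window, and a receptor close to 0. They are Nr2f6 at chr8:71381903-71382202 (minus strand, 53 CpGs), Esrra at chr19:6921759-6922058 (minus strand, 25 CpGs), Nr2f2 at chr7:70366697-70366996 (minus strand, 2 CpGs) and Nr1i2 at chr16:38294775-38295074 (minus strand, 2 CpGs).
Nr2f6: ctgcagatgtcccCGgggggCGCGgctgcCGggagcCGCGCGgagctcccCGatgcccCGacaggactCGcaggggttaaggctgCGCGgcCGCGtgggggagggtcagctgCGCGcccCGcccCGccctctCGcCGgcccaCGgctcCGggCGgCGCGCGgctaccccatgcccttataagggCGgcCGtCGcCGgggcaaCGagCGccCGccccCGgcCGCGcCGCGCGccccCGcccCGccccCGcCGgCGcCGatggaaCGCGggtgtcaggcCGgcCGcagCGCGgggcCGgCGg
Esrra: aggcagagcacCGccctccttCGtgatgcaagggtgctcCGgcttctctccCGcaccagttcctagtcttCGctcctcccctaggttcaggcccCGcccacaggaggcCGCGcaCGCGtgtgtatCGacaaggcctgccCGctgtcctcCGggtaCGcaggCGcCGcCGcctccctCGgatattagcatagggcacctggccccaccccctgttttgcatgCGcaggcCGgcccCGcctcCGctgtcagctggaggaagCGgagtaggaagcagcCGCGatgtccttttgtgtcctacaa
Nr2f2: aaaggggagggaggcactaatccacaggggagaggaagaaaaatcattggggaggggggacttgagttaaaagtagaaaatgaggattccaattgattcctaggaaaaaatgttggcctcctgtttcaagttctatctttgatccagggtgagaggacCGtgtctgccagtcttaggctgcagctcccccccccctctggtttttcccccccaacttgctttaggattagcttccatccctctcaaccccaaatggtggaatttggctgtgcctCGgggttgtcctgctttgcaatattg
Nr1i2: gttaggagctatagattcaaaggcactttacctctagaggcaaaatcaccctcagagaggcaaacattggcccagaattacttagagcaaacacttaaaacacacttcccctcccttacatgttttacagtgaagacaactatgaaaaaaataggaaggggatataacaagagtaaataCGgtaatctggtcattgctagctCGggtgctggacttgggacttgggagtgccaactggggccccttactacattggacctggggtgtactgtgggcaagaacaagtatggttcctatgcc

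Nr2f6 and Esrra each averaged about 121 TPM over the 8 libraries. Nr2f2 averaged 16.9 TPM with as few CpGs in its window as Nr1i2, and Nr1i2 averaged 0.00875 TPM. Only 1 window was found for Nr2f2, at the upstream end of a gene with 6 annotated transcripts. CpGs at other starts of Nr2f2 were not counted. Pparg went the other way, with 44 CpGs in one of its 3 windows and a mean of 0.519 TPM. The half-site AGGTCA, which many of these receptors bind, was searched on both strands and stood in 11 of 56 receptor windows (19.6%), against 16.3% of all 32851 windows in the table. These matches describe letters in a window and not bound sites.

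**Figure D1:**
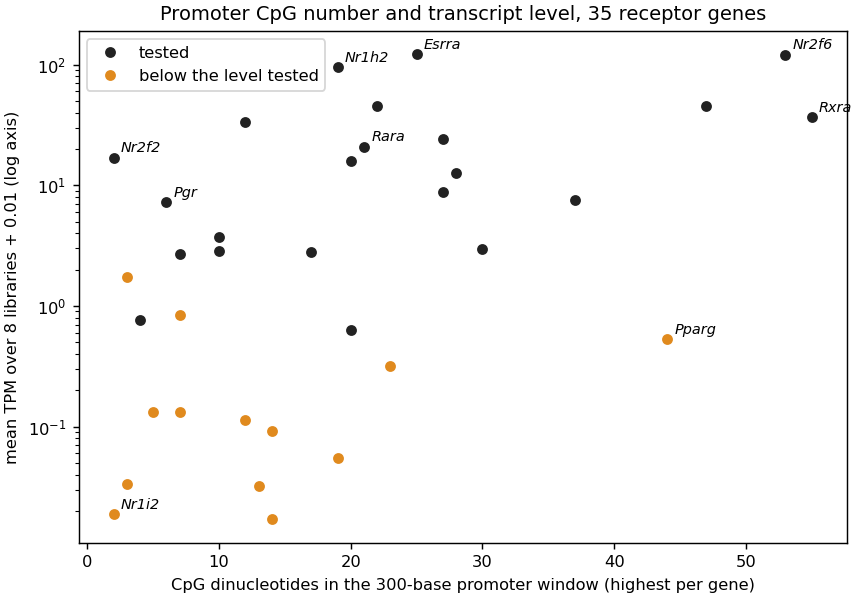
Each point is 1 of 35 receptor genes, with the highest CpG number among its 300-base promoter windows on the horizontal axis and its mean TPM over 8 libraries plus 0.01 on a log vertical axis. Tested genes (black, median 20.5 CpGs) reach both ends of the horizontal axis, among them Nr2f2 with 2 CpGs in its 1 window. Pparg with 44 CpGs lies below 1 TPM.

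The level of the family was led by 4 genes. Thra, Esrra, Nr2f6 and Nr1h2 together made up 60.2% ± 1.98 of the summed TPM of all 38 receptors under high salt and 61.7% ± 3.72 under normal salt (SD, n = 4 each). A mean of at least 10 TPM over all libraries was reached by 13 genes, and 16 had a mean under 1 TPM. The first 3 could not be ranked, since Thra exceeded Esrra in 4 of 8 libraries and Esrra exceeded Nr2f6 in 5 of 8. Nr2f6 exceeded Nr1h2 in all 8 libraries, and Nr1h2 exceeded Esrrg in all 8, both without overlap of their ranges. Farther down, Esrrg and Rxrb swapped order between libraries (4 of 8), as did Nr2f2 and Nr2c2 (4 of 8), and the ranges of all neighbours from Esrrg down to Hnf4a overlapped.

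**Figure D2:**
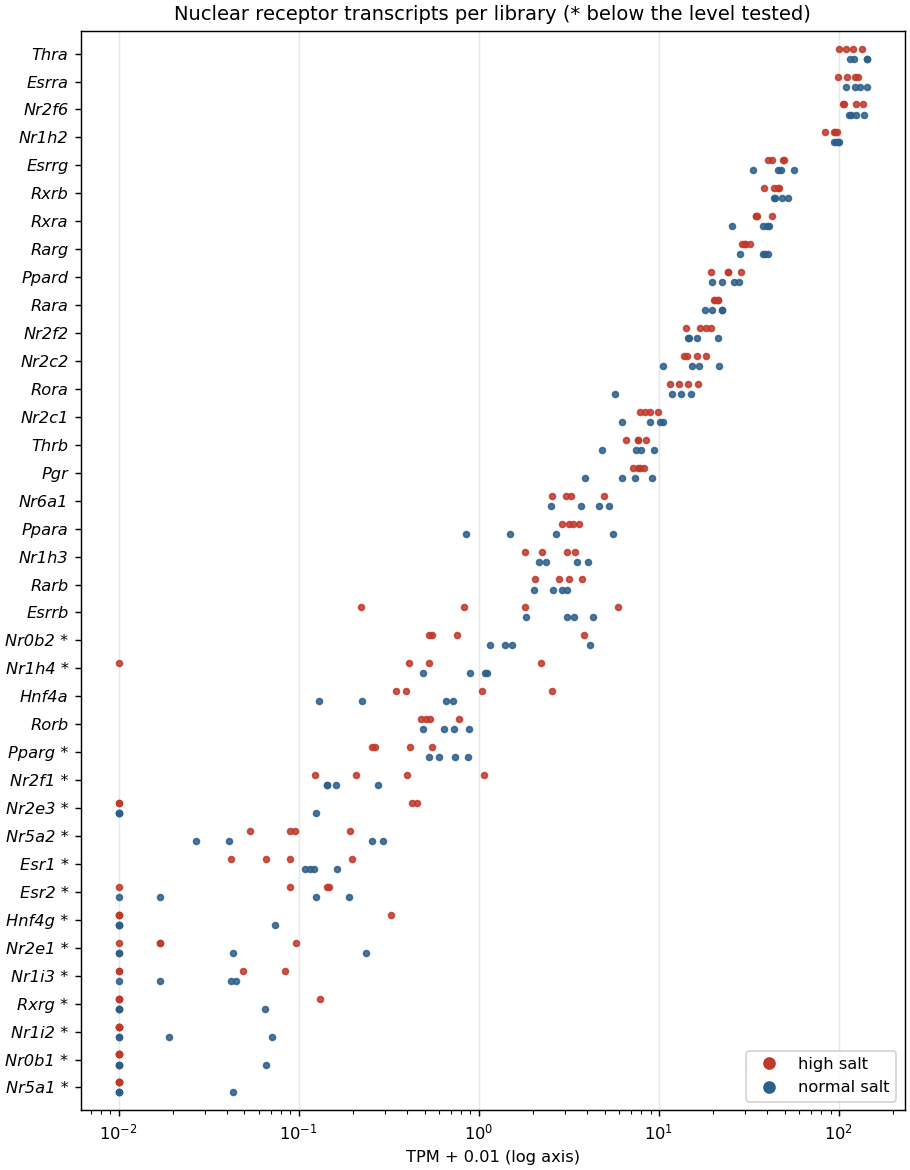
TPM plus 0.01 on a log axis for all 38 receptors in each library (high salt in red above normal salt in blue), ordered by mean TPM, with an asterisk for the 15 genes below the level tested. Thra, Esrra, Nr2f6 and Nr1h2 form the upper end, and the diets overlap in every gene.

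High salt was compared with normal salt to ask whether receptor transcripts of this segment differ between the diets. With limma on log2(CPM + 1), 0 of the 23 tested receptors passed an adjusted p of 0.05, where 11 of 13401 tested genes (0.0821%) did, 0.0298% in the higher and 0.0522% in the lower direction. Those 11 calls over all genes were 0 without high-salt library 4 or normal-salt library 3, 1 without high-salt library 3 or normal-salt library 6, 5 without high-salt library 2 and 50 without normal-salt library 1, while the receptor count was 0 each time. At an unadjusted p under 0.05 there was 1, Thra (lower), where 10.3% of all tested genes reached that level, 5.95% in the higher and 4.37% in the lower direction. Voom on estimated counts gave the same counts of 0 and 1. The diets overlapped in CPM in all 38 receptors, whereas 6.4% of tested genes did not overlap. Means were lower under high salt in 16 of 23 receptors (69.6%) and in 47.2% of all tested genes. On TPM they were lower in 12 of 22 receptors, a set filtered on TPM that lacks Hnf4a and Rorb and includes Nr0b2. The median log2 fold change was -0.08 over the 23 receptors and 0.01 over all tested genes. The summed TPM of the 38 receptors was 734 ± 32.6 under high salt and 776 ± 33.3 under normal salt (SD, n = 4 each).

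The intervals show how large a difference could have been missed on the log2(CPM + 1) scale, which understates changes of low genes. For 16 of the 23 receptors the 95% interval of the log2 fold change lay within 0.5 on either side of 0, and for 21 it lay within 1, a limit that 92.8% of all tested genes met. The exceptions to the wider limit were Esrrb and Hnf4a. Voom on estimated counts gave larger log2 fold changes for low genes. They were -1.45 for Esrrb (-0.96 on the main scale), 1.21 for Hnf4a (0.69) and 0.55 for Ppara (0.46). The median standard deviation within a diet was 0.19 on the log2(CPM + 1) scale for the receptors and 0.20 for all tested genes.

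**Figure D3:**
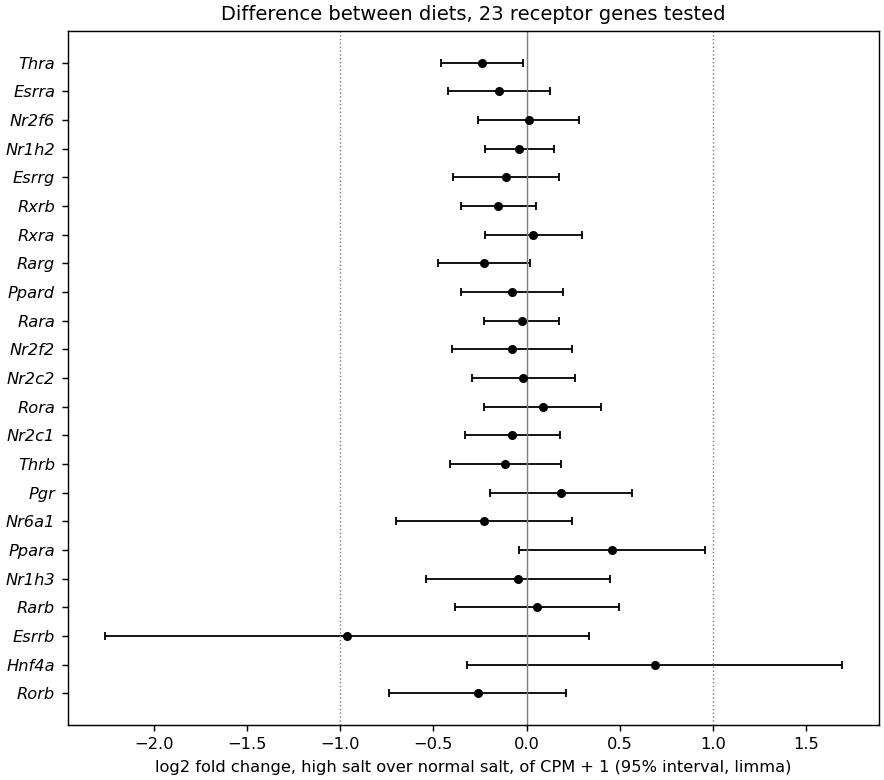
Log2 fold change of CPM + 1, high salt over normal salt, with 95% intervals from limma for the 23 tested receptors, ordered from the highest mean TPM at the top, with dotted lines at -1 and 1. The intervals of Esrrb and Hnf4a alone cross a dotted line, and the interval of Thra alone excludes 0 before adjustment.

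Thyroid hormone receptors were mainly Thra, which held 93.8% ± 1.09 of the TPM of the pair under high salt and 94.7% ± 1.31 under normal salt (SD, n = 4 each). Thra had 134, 120.5, 100.4 and 109 TPM in high-salt libraries 2, 3, 4 and 6, against 115, 143, 142 and 122 TPM in normal-salt libraries 1, 2, 3 and 6. The 2 lowest values were from high salt, but the diets overlapped. In CPM, on which the test ran, Thra had 152 ± 16.9 under high salt and 179 ± 13.3 under normal salt (log2 fold change -0.24, 95% interval -0.46 to -0.02, limma adjusted p = 0.444). On TPM the log2 fold change was -0.17 (limma adjusted p = 0.705). The unadjusted p of Thra was above 0.05 on TPM, with a proximal tubule covariate, without high-salt library 4 or 6 or normal-salt library 2 or 3, and without high-salt library 6 and normal-salt library 1 together, and its adjusted p ran from 0.331 to 0.807 over all alternatives. Thra occupies 98740638 to 98769006 of chromosome 11 (plus strand, GENCODE M21 on mm10), and 263 of its 4614 exon bases are shared with Nr1d1 on the other strand. Nr1d1, a clock receptor, had 292 ± 61.1 CPM under high salt and 261 ± 133 CPM under normal salt. The kit keeps strand, but the strand setting of the counting is not given in the sources used here, so reads from the shared bases are uncertain. Thrb, the other thyroid hormone receptor, had 7.61 ± 0.786 TPM and 7.39 ± 1.90 TPM.

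Retinoic acid receptors were led by Rarg, followed by Rara and then Rarb. Rarg had 29.1, 32.2, 30.1 and 30.1 TPM in high-salt libraries 2, 3, 4 and 6, against 28.3, 37.7, 38.9 and 40.3 TPM in normal-salt libraries 1, 2, 3 and 6. Apart from normal-salt library 1, every normal-salt TPM value lay above every high-salt value. This did not hold on the CPM scale, where high-salt library 3 (60.6 CPM) also lay above normal-salt library 2 (59.1 CPM). In CPM Rarg had 53.5 ± 6.26 and 62.8 ± 6.75 (log2 fold change -0.23, 95% interval -0.48 to 0.02, limma adjusted p = 0.525). Rara had 20.6, 20.3, 21.4 and 21.3 TPM under high salt, against 18.1, 19.7, 22.4 and 22.5 TPM under normal salt, a narrower spread that lay inside the normal-salt range. Rarb, known as a retinoic acid target as well as a receptor, had 2.93 ± 0.701 and 2.64 ± 0.467 TPM, and 34.1% of its exon bases are shared with Top2b on the other strand, which had 131 ± 3.09 and 125 ± 15.8 CPM.

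Within this trio the share of Rara was 36.7% to 39.7% under high salt and 32.7% to 36.6% under normal salt, without overlap. An exact two-sided permutation test over the 8 libraries gave p = 0.0286, the smallest that 4 against 4 allows, and p = 0.543 after Benjamini-Hochberg adjustment over the 19 shares compared, of which this was the 1 that did not overlap. Taken from CPM in place of TPM, the share was 36.0% to 43.0% under high salt and 34.9% to 38.0% under normal salt, and the diets overlapped.

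**Figure D4:**
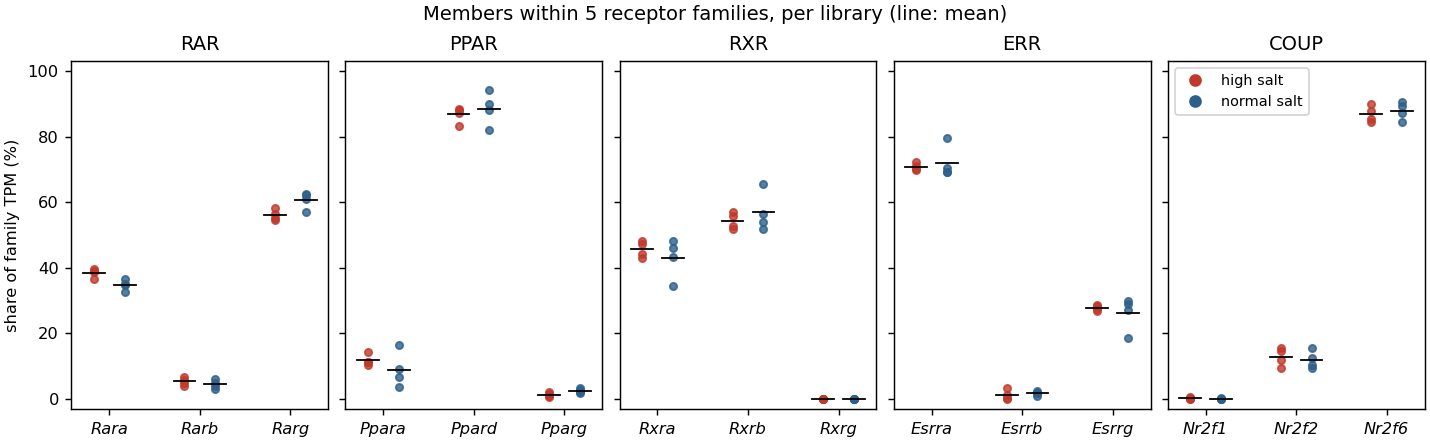
Share of each member in the summed TPM of its family, per library (points) and as the mean (line), for retinoic acid receptors, PPARs, RXRs, estrogen-related receptors and COUP factors, with high salt in red left of normal salt in blue. Rara at 36.7% to 39.7% against 32.7% to 36.6% is the only share drawn whose diets do not overlap.

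The RXR partners were Rxrb and Rxra, with Rxrg near 0. Rxrb had 45.7, 38.4, 46.5 and 43.7 TPM in high-salt libraries 2, 3, 4 and 6, against 48.5, 43.7, 44.5 and 52.0 TPM in normal-salt libraries 1, 2, 3 and 6. Its lowest value was from high salt and its highest from normal salt, with overlap between them (in CPM, log2 fold change -0.15, 95% interval -0.35 to 0.05, limma adjusted p = 0.619). Rxra had 42.6, 34.6, 35.3 and 34.7 TPM under high salt, against 25.5, 40.8, 38.1 and 39.9 TPM under normal salt. High-salt library 2 stood above the other high-salt libraries and normal-salt library 1 below the other normal-salt libraries. Rxrg was above 0 in 2 of 8 libraries, at most 0.121 TPM.

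Among receptors for sterols and bile acids, Nr1h2 (LXR beta, an oxysterol receptor found in most tissues) was abundant and Nr1h3 (LXR alpha) was low. Nr1h2 had 95.2, 98.3, 94.2 and 83.6 TPM in high-salt libraries 2, 3, 4 and 6, against 93.7, 97.0, 100.2 and 98.6 TPM in normal-salt libraries 1, 2, 3 and 6. Its CPM gave the narrowest 95% interval of the 4 leading receptors (log2 fold change -0.04, 95% interval -0.22 to 0.15, limma adjusted p = 0.917). Nr1h3 had 2.64 ± 0.751 and 3.02 ± 0.904 TPM, so that Nr1h2 held 97.2% ± 0.949 of the pair under high salt and 97.0% ± 0.864 under normal salt. Nr1h4 was below the level tested, at 0, 0.517, 0.398 and 2.21 TPM under high salt and 1.07, 0.478, 0.888 and 1.11 TPM under normal salt. Nr0b2 (SHP), a receptor without a DNA-binding domain that FXR induces in liver, was also below the level tested, at 0.539, 0.520, 0.743 and 3.82 TPM under high salt and 4.11, 1.51, 1.38 and 1.14 TPM under normal salt. In both genes high-salt library 6 was the highest of its diet.

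Fatty acid receptors were mostly Ppard, which held 86.8% ± 2.37 of PPAR TPM under high salt and 88.5% ± 5.15 under normal salt. Ppard had 28.5, 24.3, 24.3 and 19.4 TPM in high-salt libraries 2, 3, 4 and 6, against 22.5, 27.7, 26.2 and 19.7 TPM in normal-salt libraries 1, 2, 3 and 6. The means differed by less than the spread within either diet. Ppara, the receptor that drives fatty acid oxidation in liver, had 6.14, 4.43, 4.72 and 5.55 CPM under high salt, against 2.05, 5.36, 4.20 and 3.02 CPM under normal salt. All high-salt values lay above 3 of the 4 normal-salt values, and normal-salt library 2 lay among them (log2 fold change 0.46, 95% interval -0.04 to 0.96, limma adjusted p = 0.524). The TPM of Ppara per CPM ran from 0.411 to 1.04 across libraries, against 0.707 to 0.765 for Esrra, so the deposited scales order the libraries differently for Ppara. Pparg had 0.246, 0.256, 0.405 and 0.539 TPM under high salt and 0.521, 0.590, 0.863 and 0.730 TPM under normal salt. It was below the level tested, and in CPM its ranges were 0.239 to 0.665 and 0.297 to 0.698.

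Estrogen-related receptors, which drive genes of mitochondrial energy metabolism, were led by Esrra and Esrrg. Esrra had 112, 123, 99.3 and 128 TPM in high-salt libraries 2, 3, 4 and 6, against 144, 109.9, 131 and 124 TPM in normal-salt libraries 1, 2, 3 and 6. The highest value was from normal salt and the lowest from high salt, with the other libraries mixed (in CPM, log2 fold change -0.15, 95% interval -0.42 to 0.13, limma adjusted p = 0.744). Esrrg had 42.4, 49.3, 40.3 and 49.0 TPM under high salt, against 33.4, 45.9, 56.5 and 47.6 TPM under normal salt. The high-salt values lay inside the normal-salt range. Esrra is a gene of chromosome 19 (6910977 to 6921813, minus strand) and Esrrg of chromosome 1 (187608791 to 188214885, plus strand).

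Esrrb, the third of these, varied far more between libraries than between diets. It had 0.570, 2.24, 4.96 and 16.2 CPM in high-salt libraries 2, 3, 4 and 6, against 10.3, 8.21, 4.94 and 11.2 CPM in normal-salt libraries 1, 2, 3 and 6 (log2 fold change -0.96, 95% interval -2.27 to 0.34, limma adjusted p = 0.625). The high-salt libraries held both the lowest and the highest value. The 12 markers of the adjoining thick ascending limb, all above 0, summed to 147, 153, 546 and 2879 CPM in the same high-salt libraries and to 2280, 1024, 698 and 1735 CPM in the normal-salt libraries. Under high salt Esrrb and this sum had the same library order, and under normal salt the order differed by an exchange of libraries 1 and 6. With the mean log2(CPM + 1) of the 11 tested markers of this list as a covariate, the log2 fold change of Esrrb was 0.01 (limma adjusted p = 0.999). All 11 had lower means under high salt (median log2 fold change -0.91), so this covariate is not independent of diet. Of the 11, 0 reached an unadjusted p under 0.05. Without high-salt library 6, and with no covariate, the log2 fold change of Esrrb was -1.58 (limma adjusted p = 0.195). Without high-salt library 2 it was -0.43, and over all alternatives the limma adjusted p of Esrrb ran from 0.141 to 0.999. Esrrb lies on chromosome 12 from 86361117 to 86521628 (plus strand).

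Hnf4a, a regulator of liver and proximal tubule genes, was the other receptor with a wide interval. It had 0.923, 1.08, 2.91 and 7.07 CPM in high-salt libraries 2, 3, 4 and 6, against 2.07, 0.585, 0.329 and 1.90 CPM in normal-salt libraries 1, 2, 3 and 6 (log2 fold change 0.69, 95% interval -0.32 to 1.69, limma adjusted p = 0.66). High-salt library 6 was highest and the diets overlapped. Proximal tubule markers (14 genes, with Slc5a12 at 0 in all libraries) summed to 31.5, 24.6, 122 and 198 CPM in the high-salt libraries and to 133, 56.9, 20.4 and 46.4 CPM in the normal-salt libraries, highest in the same library of each diet as Hnf4a. The full library order of Hnf4a differed from that of the proximal tubule markers in both diets. It was that of the thick ascending limb markers in both diets. Nr1h4 and Nr0b2 had the order of the thick ascending limb markers in neither diet. With the 11 tested of those markers as a covariate, Hnf4a was called as higher under high salt (log2 fold change 1.41, limma adjusted p = 0.0399). All 11 had lower means under high salt, so the difference in Hnf4a and that in the covariate cannot be fully separated. With the mean log2(CPM + 1) of the 5 tested proximal tubule markers as the covariate, the log2 fold change of Hnf4a was 0.40 (limma adjusted p = 0.58). All 5 had higher means under high salt (median log2 fold change 0.48), so this covariate is not independent of diet either. Without high-salt library 6, and with no covariate, the log2 fold change of Hnf4a was 0.27 (limma adjusted p = 0.875). Over all alternatives its limma adjusted p ran from 0.0399 to 0.888. Hnf4g, its relative, was above 0 in 2 of 8 libraries, at 0.376 CPM in high-salt library 6 and 0.0925 CPM in normal-salt library 1.

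**Figure D5:**
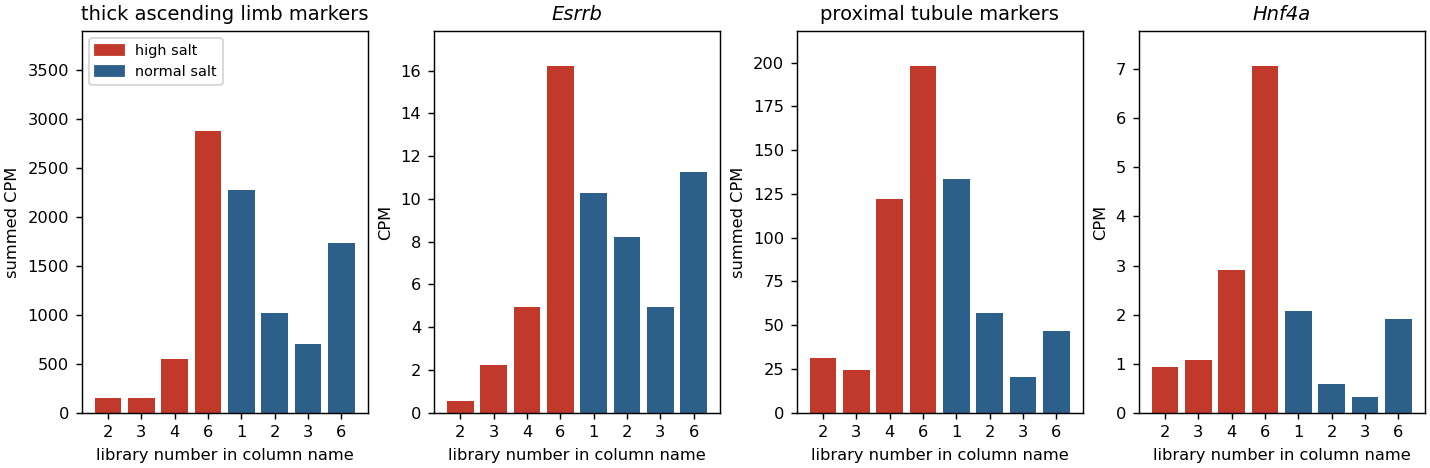
Bars give, for each library (high salt in red left of normal salt in blue, numbers from the column names), the summed CPM of thick ascending limb markers, Esrrb CPM, the summed CPM of proximal tubule markers and Hnf4a CPM. High-salt library 6 has the highest bar in all 4 panels, at 2879, 16.2, 198 and 7.07 CPM.

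COUP factors, orphan receptors that often repress transcription, were mainly Nr2f6. Nr2f6 had 107, 136, 106 and 125 TPM in high-salt libraries 2, 3, 4 and 6, against 139, 114, 125 and 117 TPM in normal-salt libraries 1, 2, 3 and 6. The values of the diets were intermixed (in CPM, log2 fold change 0.01, 95% interval -0.26 to 0.28, limma adjusted p = 0.982). Nr2f6 lies on chromosome 8 from 71374123 to 71381960 (minus strand), and 54.4% of its exon bases are shared with Ocel1 on the other strand, which had 14.5 ± 4.37 and 16.2 ± 2.70 CPM. Nr2f2, a factor of venous endothelium and mesenchyme, had 18.2, 14.2, 19.4 and 16.9 TPM under high salt, against 14.5, 16.4, 14.7 and 21.3 TPM under normal salt. Endothelial markers (10 genes) summed to 204 to 332 CPM under high salt and 226 to 342 CPM under normal salt, and fibroblast and pericyte markers (11 genes) to 55.1 to 144 CPM and 38.0 to 303 CPM. The part of those cells in the level of Nr2f2 was not tested. Nr2f1 was below the level tested, at 0.439 ± 0.427 and 0.172 ± 0.0643 TPM.

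Other orphan receptors lay between these extremes. Nr2c2 (TR4) had 18.4, 16.3, 13.7 and 14.3 TPM in high-salt libraries 2, 3, 4 and 6, against 10.6, 15.4, 16.8 and 21.5 TPM in normal-salt libraries 1, 2, 3 and 6, and its relative Nr2c1 (TR2) had 8.74 ± 0.840 and 8.97 ± 1.95 TPM. The high-salt values of Nr2c2 lay inside the normal-salt range, and 30.7% of its exon bases are shared with Mrps25 on the other strand, which had 35.4 ± 3.87 and 34.1 ± 7.49 CPM. Rora, which shares response elements with clock receptors, had 13.9 ± 2.16 and 11.4 ± 4.06 TPM. Rorb had 2.63, 2.79, 2.54 and 3.74 CPM under high salt, against 5.71, 3.79, 2.45 and 3.31 CPM under normal salt, with the lowest and the highest value both from normal salt (log2 fold change -0.26, 95% interval -0.74 to 0.21, limma adjusted p = 0.735). Nr6a1, the germ cell nuclear factor, had 3.44 ± 1.04 and 4.04 ± 1.21 TPM.

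Of the sex steroid receptors described here, Pgr was high enough to be tested and both estrogen receptors were below that level. Pgr, the progesterone receptor, had 7.76 ± 0.452 TPM under high salt and 6.66 ± 2.19 TPM under normal salt (SD, n = 4 each). Progesterone is known in mouse to raise a proton-potassium pump of the collecting duct. The high-salt values of Pgr, 7.20 to 8.29 TPM, lay inside the normal-salt range of 3.88 to 9.12 TPM (in CPM, log2 fold change 0.18, 95% interval -0.20 to 0.57, limma adjusted p = 0.772). Esr1 had 0.0888 ± 0.0689 and 0.117 ± 0.0247 TPM, and Esr2 was at most 0.181 TPM.

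The remaining receptors were close to 0. Nr1i2 (PXR) and Nr1i3 (CAR), sensors of foreign compounds in liver, were at most 0.0956 and 0.133 CPM in any library. Of the exon bases of Nr1i3, 74.9% are shared with Tomm40l on the other strand, which averaged 57.1 CPM under high salt and 55.0 CPM under normal salt. Nr5a1, the steroidogenic factor of adrenal and gonad, and Nr0b1 (DAX1), its repressor, were each above 0 in 1 library, of normal salt. Nr5a2 (LRH-1), Nr2e1 of neural stem cells and Nr2e3 of photoreceptors reached at most 0.502, 0.176 and 0.515 CPM. A count of 0 in these libraries allows up to 3 counts, or 0.0319 to 0.0463 CPM, for counting error only.

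Coregulators, ligand-handling genes and known targets were compared in 11 lists, whose 142 genes included 140 present in the tables and 83 tested. With limma 0 of the 83 passed an adjusted p of 0.05, while at an unadjusted p under 0.05 there were 4 higher and 3 lower (voom on estimated counts also called 0). Over all tested genes 5.95% were higher and 4.37% lower at that level, and the share of list genes was no larger. The diets did not overlap in 4 of the 83, against 6.4% of all tested genes. All 20 coregulators were tested, with a median log2 fold change of 0.06. Among them Pprc1, a coactivator related to PGC-1, had 26.1 ± 6.17 CPM under high salt and 16.8 ± 3.51 CPM under normal salt (limma adjusted p = 0.298), and Ppargc1a, the coactivator PGC-1 alpha, had 210.1 ± 47.6 and 261 ± 57.2 CPM (limma adjusted p = 0.622). Lcor, a ligand-dependent corepressor, had 26.8 ± 2.07 and 19.6 ± 8.67 CPM.

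Of 19 retinoid genes 6 were tested. Dhrs3, which reduces retinal and is induced by retinoic acid, had 126 ± 20.1 CPM under high salt and 174 ± 24.4 CPM under normal salt (log2 fold change -0.47, limma adjusted p = 0.212), with overlap between the diets. Aldh1a1, which makes retinoic acid, had 59.6 ± 9.90 and 76.3 ± 36.5 CPM, and Rdh11, a retinal reductase, had 37.9 ± 4.58 and 33.5 ± 3.83 CPM. Of 11 thyroid hormone genes 6 were tested, with 0 at an unadjusted p under 0.05. They included the hormone transporter Slc16a10 at 32.8 ± 5.41 and 39.2 ± 3.77 CPM, and the targets Me1 at 17.9 ± 2.26 and 13.5 ± 5.15 CPM and Klf9 at 107 ± 22.1 and 119.7 ± 14.1 CPM.

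Of 22 PPAR carriers and targets 17 were tested, 1 higher and 1 lower before adjustment. Acaa2, a thiolase of fatty acid oxidation, had 248 ± 20.4 and 207 ± 22.3 CPM (limma adjusted p = 0.385), and Plin2, a lipid droplet protein, had 44.4 ± 4.48 and 53.2 ± 5.41 CPM (limma adjusted p = 0.446). Cpt1a, which admits fatty acids to mitochondria, had 342 ± 35.2 and 289 ± 66.6 CPM. Of 15 LXR genes 11 were tested: Fasn, the fatty acid synthase, had 139.7 ± 21.3 and 92.4 ± 13.9 CPM (log2 fold change 0.59, limma adjusted p = 0.141), and Smpdl3a had 173 ± 6.57 and 219 ± 28.3 CPM (log2 fold change -0.33, limma adjusted p = 0.239). Neither overlapped between diets, and their differences had opposite signs; these are 2 of the 4 list genes without overlap. Of the 7 FXR genes and the 4 steroidogenic targets of NR5A, 0 were high enough to test.

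For the estrogen-related receptors, 14 of 15 listed targets in the tables were tested and 11 had higher means under high salt, with a median log2 fold change of 0.13 and 0 at an unadjusted p under 0.05. Over all tested genes 47.2% had a log2 fold change below 0 and the median was 0.01. Ogdh, a citric acid cycle enzyme, had 773 ± 53.2 CPM under high salt and 679 ± 21.8 CPM under normal salt without overlap (limma adjusted p = 0.525). Of 10 PXR and CAR targets 3 were tested, among them Ugt1a1 at 6.67 ± 1.49 and 1.39 ± 0.998 CPM (log2 fold change 1.75, limma adjusted p = 0.0529), whose exons are shared with other Ugt1a genes. Among estrogen genes 5 of 12 were tested, with Ctsd, cathepsin D, at 1172 ± 174 and 954 ± 121 CPM and Prlr, the prolactin receptor, at 1.35 ± 0.924 and 2.32 ± 0.355 CPM (limma adjusted p = 0.501 and 0.498). Among HNF4A genes 3 of 7 were tested, with Mttp at 4.11 ± 0.760 and 3.12 ± 0.770 CPM (limma adjusted p = 0.624).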

How the data were processed

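RNA of 8 duct pools was measured, 4 per diet. The submitters' processing notes name FastQC, Trimmomatic and the build mm10. Aligner, counter and strand setting were not given in the sources used here. Deposited by the authors were TPM, rounded to 3 decimals, and a table named CPM whose values were log2 values with a floor of -5.29 in all libraries. Because the design had foreseen linear CPM, the deposited log2 values were first returned to the linear scale and the floor was subtracted.

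CPM steps gave estimated counts, of which 83.8% to 85.0% under 1000 counts were whole (tolerance 0.005), so a count model was not used. Genes with at least 1 CPM in at least 4 libraries (13401) entered limma 3.58.1 (R 4.3.3) as log2(CPM + 1) values (trend, two-sided, Benjamini-Hochberg over all tested genes), tested on simulated data. This scale understates changes of low genes. Column names give the diet and a number that differs from the sample titles, so each library is called by its diet and its column's number. P-values measure the spread between these mice.

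Receptors and lists were chosen with earlier results of these data known. Values per library are given for the 12 receptors highest in TPM and the 8 with the smallest p, and up to 3 genes per list by smallest p; those given for Nr1h4, Nr0b2 and Pparg were chosen after their values were seen. Positions are from GENCODE M21 and promoters from RefSeq. Alternatives covered the pseudocount, filter, scaling, TPM, robust moderation, voom, marker covariates, a replicate block and leaving out libraries.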

Additional observations from a re-analysis of the deposited data

Results flagged for a closer look

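Rxra had 134.9 CPM in high-salt library 2, where the other high-salt libraries lay between 111.5 and 114.7 CPM. The gap to the nearest library was 0.866 of the range within the diet, above the Dixon limit for 4 samples. This was the only such value among 46 groups of 4 libraries (23 tested receptors in each diet). At about 1 in 20, chance gives 2.3 such values, so 1 is no excess. The normal-salt libraries had 91.6 to 127.5 CPM.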

How the results depend on the processing

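The 0 receptors called remained 0 in all alternatives except that with the thick ascending limb covariate, which called 1 (Hnf4a). The tested markers of that covariate all had lower means under high salt, and those of the proximal tubule covariate all had higher means. The 1 receptor at an unadjusted p under 0.05, Thra, became 0 on TPM, 2 with the thick ascending limb covariate (Hnf4a, Thra), 3 with the replicate block (Hnf4a, Rarg, Thra) and 2 without high-salt library 6 and normal-salt library 1 (Esrrb, Rarg), an alternative chosen after seeing the data, as was the proximal tubule covariate, under which the 1 was Esrrb. Leaving out 1 library at a time gave 0 to 2, with 0 receptors called each time; the 1 was Esrrb without high-salt library 6 and Ppara without normal-salt library 2. The 0 list genes called became 1, Ugt1a1, with robust moderation, either covariate, the replicate block, without those 2 libraries, and in the range of 0 to 1 when 1 library was left out. The column numbers 2, 3 and 6 occur in both diets, but libraries of the same number did not all deviate together (r = 0.208, 0.287 and 0.002), so the replicate block was not used in the report; it called 0 receptors. Over the whole table the 11 genes called became 0 with no filter, 5 on TPM, 22 with robust moderation, 40 and 27 with the thick ascending limb and proximal tubule covariates, 38 with the replicate block and 43 without those 2 libraries. Fitted log2 fold changes kept their sign in 374 of 412 refits of the 23 receptors. Refits with no filter or with robust moderation repeat the main log2 fold change of each gene, so their signs could not turn. Signs turned on TPM for Thrb (0.0634), Rara (0.0186), Ppard (0.00403), Nr2f2 (0.0444), Nr2f6 (-0.0624), Esrrg (0.000766); with the thick ascending limb covariate for Nr1h3 (0.187), Rxra (-0.0440), Nr2f2 (0.0586), Esrrb (0.00852); with the proximal tubule covariate for Rarb (-0.0261), Nr2c2 (0.0397); with the replicate block for Rora (-0.0186), Rxra (-0.0569), Esrra (0.0166); without high-salt library 6 and normal-salt library 1 for Ppard (0.0349), Rora (-0.0469), Nr1h2 (0.0291), Rxra (-0.0450). Leaving out 1 library at a time gave log2 fold changes on both sides of 0 for Rara -0.0797 to 0.0103, Rarb -0.0604 to 0.186, Rora -0.0470 to 0.179, Nr1h3 -0.190 to 0.115, Rxra -0.0700 to 0.0874, Nr2c1 -0.144 to 0.00187, Nr2c2 -0.116 to 0.0645, Nr2f2 -0.163 to 0.0340, Nr2f6 -0.0733 to 0.0864. The causes were not tested. The 4 mice per diet and levels under 1 CPM limit what could be seen.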
